A study of Mus musculus with 4 samples.

Results

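A set of 33 genes of interstrand crosslink and excision repair was followed across 4 droplet libraries of cells sorted from mouse tumours. The 33 genes were taken by symbol from the 31053 features of the tables, and all 33 were found. The rule used no expression values, but the list was chosen with earlier results of these data known. They comprise 11 nucleotide excision repair genes, 14 genes of the Fanconi pathway and its nucleases, 4 homologous recombination genes, 3 translesion synthesis genes and the mismatch repair gene Msh6. Wild-type mice of the strain given as C57/bl6 carried subcutaneous tumours grown from 300000 TC-1 cells, a mouse lung epithelial tumour line. PBS or cisplatin at 6 mg/kg was given once by the intraperitoneal route when the tumour measured 40 mm². Libraries were made from PBS tumours and from tumours taken at day 1, day 3 and day 7 after cisplatin, 1 library per group. No day is labelled for the PBS library, the source label of that library reads as untreated although its treatment label reads PBS, and the number of mice behind a library is not given in the labels. Cells were sorted as CD45+, lin-, CD90+ and CD127+ and labelled innate lymphoid cells.

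Cisplatin forms adducts that join bases of the same strand or of opposite strands. Nucleotide excision repair recognises helix distortions through XPC or the DDB1-DDB2 complex, or through CSB (Ercc6) and CSA (Ercc8) at stalled transcription, opens the helix with XPB and XPD and cuts it with ERCC1-XPF (Ercc4). The Fanconi pathway marks crosslinks at stalled replication forks by monoubiquitination of FANCD2 and FANCI, after which nucleases, translesion polymerases and homologous recombination complete the repair, so much of this machinery is known to be made in S and G2 phases.

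The 4 libraries held 2981 to 10745 barcodes, of which 2705 to 7425 were kept as cells, with 15409965 to 66461648 UMIs (counted molecules) in the kept cells. Day 7 had the fewest cells and UMIs. Library pairs shared 4 to 32 barcodes. Cells were gated by marker UMIs. Macrophage-gated cells made up 87.9% of kept cells with PBS, 73.6% on day 1, 66.5% on day 3 and 72.7% on day 7, which goes against the label. In non-cycling macrophage-gated cells, Thy1 (CD90) was at 7.72 CPM (counts of a gene per 1000000 UMIs) and Il7r (CD127) at 48.2 CPM, against 324 and 1043 CPM in non-cycling T-gated cells. T-gated cells numbered 139 with PBS and 287, 426 and 100 on days 1, 3 and 7, and NK/ILC1-gated cells 38, 31, 51 and 58. Cells with UMIs of at least 5 of 20 cell cycle genes were set apart as cycling, and formed 27.2% of macrophage-gated cells with PBS, 7.81% on day 1, 4.91% on day 3 and 15.1% on day 7. After thinning each cell to 2000 UMIs these shares were 11.1%, 1.59%, 1.22% and 4.74%, in the same order.

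The members were sparse in single cells. Cells were thinned to 2000 UMIs and then gated. A non-cycling macrophage-gated cell then held UMIs of 0.608 ± 0.771 of the 33 genes with PBS (mean ± SD over 3936 cells). On day 7 it held UMIs of 0.453 ± 0.656 of them (1241 cells). Cells that counted as cycling unthinned can lie in this thinned gate. Their part in the difference between PBS and day 7 was not tested. Because the members were sparse, results were read from unthinned UMIs summed over the cells of a gate. They are given as CPM over the UMIs of the same cells. In summed counts, fewer RNA molecules per cell and fewer cells that hold the RNA cannot be told apart. Summed over the 33 genes, non-cycling macrophage-gated cells held 302 CPM with PBS, 315 CPM on day 1, 309 CPM on day 3 and 238 CPM on day 7. Cycling macrophage-gated cells held 458, 489, 478 and 404 CPM in the same order, so each library had a higher sum in its cycling cells. Rad23b (62.6 CPM with PBS and 66.7 on day 7) and Ddb1 (57.7 and 37.7) were the largest terms of the non-cycling sum. The plot of member levels by gate and library gives all 33 genes.

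**Figure D1:**
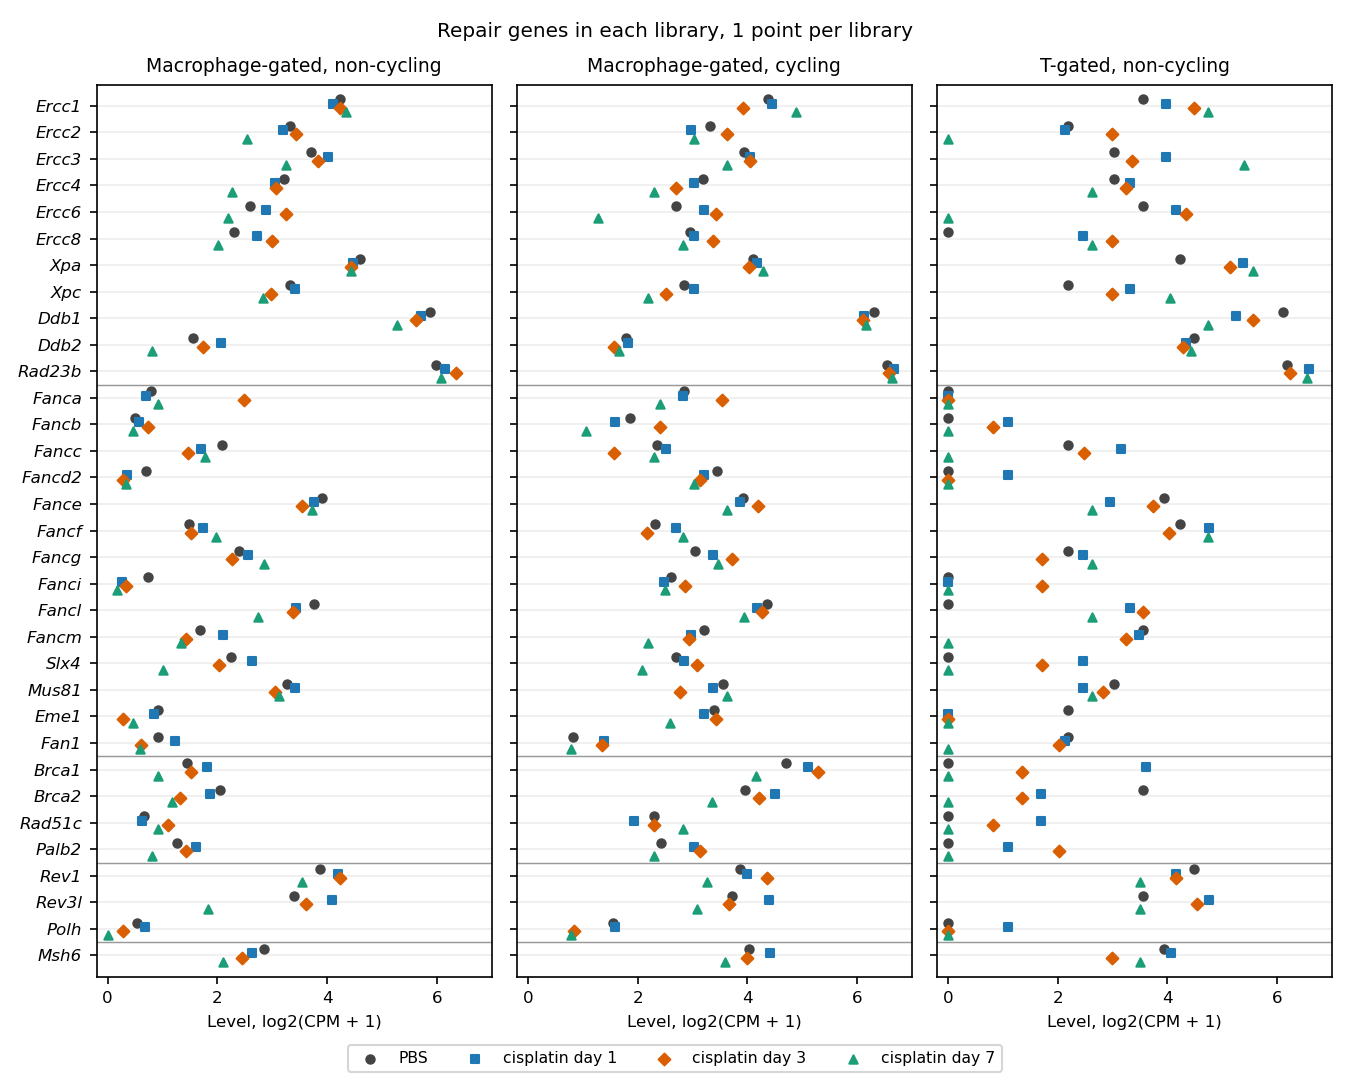
Level of each of the 33 genes as log2(CPM + 1) in non-cycling macrophage-gated, cycling macrophage-gated and non-cycling T-gated cells, with 1 point per library and lines between repair pathways. Fancd2, Fanci, Eme1 and Brca1 lie further right in all 4 libraries among cycling cells, and Ddb2 and Fancf in all 4 among T-gated cells.

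Cycling and non-cycling macrophage-gated cells of the same libraries were compared first, with the library as a block (edgeR quasi-likelihood test, adjusted over 11496 genes). Of the members, 10 of 14 Fanconi pathway and nuclease genes, 4 of 4 homologous recombination genes and Msh6 rose in cycling cells, as did 3 of 11 excision genes. Of the 32 members tested, 18 rose and 2 fell, beside 24.6% of all genes that rose and 29.4% that fell. The median log2 fold change was 0.52 over the members and -0.08 over all genes. In 15 members every cycling sum lay above every non-cycling sum (17.4% of all genes), and in 1, Xpa, every cycling sum lay below (7.15% of all genes). Polh, with 127 UMIs in all kept cells, did not pass the filter on low counts. That filter can be passed on the cycling sums alone. Members low in non-cycling cells, such as Fancd2 and Fanci, could thus enter the test through the gate where they are high. With no filter beyond 1 UMI, 19 of 33 members rose and 2 fell, beside 2916 and 3659 of 19218 genes. Cycling cells were deeper, with a median of 9577.5 UMIs per cell against 5520 with PBS and 17236 against 8572 on day 1. With every cell thinned to 2000 UMIs before gating, 691 cycling cells were left, 19 members passed the filter and 3 of them rose (Fanci, Brca2 and Fancg). The PBS cycling share then fell from 27.2% to 11.1%, so cells that counted as cycling unthinned can lie in the thinned non-cycling gate. The thinned comparison therefore does not change depth alone.

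The sequences shown are those of the 4 members with the largest rise in cycling cells among those with a promoter entry, and of Fanca, whose level on day 3 is described further on. They are the 250 bases before the transcription start in RefSeq (GRCm38.p6), written 5′ to 3′ on the gene's strand. Capitals mark letters of the CCAAT box or of an E2F-type motif on either strand. The E2F-type letters searched were TTCCCGC, its variant with the letters TTGGCGC, a further variant with TTCGCGC, and the last variant with TTGCCGC.
Brca1 (chr11:101551956-101552205, minus strand): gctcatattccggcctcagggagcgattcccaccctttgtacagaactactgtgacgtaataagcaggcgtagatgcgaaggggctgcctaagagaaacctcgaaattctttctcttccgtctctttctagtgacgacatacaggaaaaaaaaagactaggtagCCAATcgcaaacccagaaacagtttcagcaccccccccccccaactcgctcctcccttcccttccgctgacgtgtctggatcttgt
Fanci (chr7:79392088-79392337, plus strand): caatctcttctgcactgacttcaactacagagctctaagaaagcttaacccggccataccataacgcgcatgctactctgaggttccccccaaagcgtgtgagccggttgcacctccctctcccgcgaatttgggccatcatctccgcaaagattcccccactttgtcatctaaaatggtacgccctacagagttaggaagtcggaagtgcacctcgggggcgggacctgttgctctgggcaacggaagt
Eme1 (chr11:94653744-94653993, minus strand): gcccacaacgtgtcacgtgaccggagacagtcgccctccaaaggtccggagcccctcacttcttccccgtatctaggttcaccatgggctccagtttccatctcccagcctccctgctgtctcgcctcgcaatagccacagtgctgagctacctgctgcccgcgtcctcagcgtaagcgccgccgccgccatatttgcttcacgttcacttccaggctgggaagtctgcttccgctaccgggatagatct
Brca2 (chr5:150522371-150522620, plus strand): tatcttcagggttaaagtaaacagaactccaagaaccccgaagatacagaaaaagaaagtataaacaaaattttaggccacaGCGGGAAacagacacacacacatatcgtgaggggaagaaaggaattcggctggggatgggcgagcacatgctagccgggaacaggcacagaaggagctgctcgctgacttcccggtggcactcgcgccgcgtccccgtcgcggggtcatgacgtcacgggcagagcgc
Fanca (chr8:123318577-123318826, minus strand): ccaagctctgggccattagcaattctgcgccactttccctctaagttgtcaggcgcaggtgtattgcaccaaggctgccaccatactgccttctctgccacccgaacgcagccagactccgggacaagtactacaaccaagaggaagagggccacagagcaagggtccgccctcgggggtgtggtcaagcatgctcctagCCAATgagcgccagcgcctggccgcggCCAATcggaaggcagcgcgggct

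A promoter entry was found for 28 of the 33 members. The E2F-type letters occurred in 7 of the 28 (25%) and in 7.97% of 27025 promoters of this length. Among members that rose in cycling cells 5 of 17 held them, and among the others 2 of 11. Brca2 held 1 match, and Brca1, Fanci and Eme1 none. For Fanci wholly and for Eme1 largely, these bases lie inside the gene as annotated by GENCODE. They also lie wholly inside it for Ercc1, Ddb1, Fancc, Fancl, Rad51c and Slx4, and in part for others of the 28. The shares of the whole set thus rest in part on bases inside genes. The bases before the earlier GENCODE starts were not searched. The CCAAT box occurred in 14 of 28 member promoters (50%) against 34.5% of all promoters, with 1 in Brca1 and 2 in Fanca. The cell cycle homology letters TTTGAA and TTCGAA occurred in 0 of 28 member promoters and in 17.4% of all promoters. These are matches of letters within 250 bases and not measured binding.

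Fancd2 and Fanci form the clamp that is ubiquitinated at crosslinks, and both were low outside cycling cells. Fancd2 (chr6:113531682-113597017 in mm10) stood at 9.91, 8.24, 7.83 and 7.15 CPM in cycling cells with PBS and on days 1, 3 and 7, the order kept for all values by library. Non-cycling cells of the same libraries held 0.630, 0.274, 0.207 and 0.254 CPM of Fancd2. The groups did not overlap, and the log2 fold change was 4.47 (SE 0.27, adjusted p = 8.06e-07 by edgeR). Fanci stood at 5.12, 4.59, 6.26 and 4.65 CPM in cycling cells and at 0.675, 0.192, 0.258 and 0.127 CPM in non-cycling cells. All 4 Fanci values were higher in cycling cells, with a log2 fold change of 3.82 (SE 0.37, adjusted p = 1.92e-05 by edgeR).

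Eme1, the partner of the Mus81 nuclease, rose while Mus81 itself did not pass the test. Eme1 held 9.58, 8.24, 9.78 and 5.00 CPM in cycling cells and 0.899, 0.793, 0.207 and 0.381 CPM in non-cycling cells, in library order. Its groups did not overlap (log2 fold change 3.66, SE 0.31, adjusted p = 7.63e-06 by edgeR). Mus81 had a log2 fold change of 0.07 (SE 0.16, adjusted p = 0.745 by edgeR). Eme1 is overlapped on the opposite strand by Lrrc59 and Mrpl27, and whether counting used strand is not given in the sources used here.

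Fanca, a subunit of the core complex that ubiquitinates the clamp, stood at 6.22, 6.08, 10.6 and 4.29 CPM in cycling cells. Non-cycling cells held 0.720, 0.629, 4.60 and 0.888 CPM, so the day 3 non-cycling value overlapped the cycling group. The log2 fold change of Fanca was 2.32 (SE 0.35, adjusted p = 0.000360 by edgeR). The core subunits Fancb (2.27), Fancf (1.04), Fancg (0.88) and Fancl (0.77), the fork-binding helicase Fancm (1.45) and the nuclease scaffold Slx4 (0.61) also rose, in log2 fold change. Fancc (0.53), Fance (0.07) and the nuclease Fan1 (0.22) did not pass the test. The call for Slx4 was lost without the PBS, the day 3 or the day 7 library (adjusted p = 0.0806, 0.115 and 0.0706 by edgeR).

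All 4 homologous recombination members rose. Brca1, which promotes resection of broken ends, stood at 25.1, 33.5, 38.3 and 16.8 CPM in cycling cells and at 1.71, 2.52, 1.86 and 0.888 CPM in non-cycling cells. Its log2 fold change was 3.88 (SE 0.15, adjusted p = 3.66e-08 by edgeR). Brca2, a mediator of strand exchange, held 14.5, 21.7, 17.6 and 9.29 CPM in cycling cells against 3.15, 2.63, 1.5 and 1.27 CPM (log2 fold change 2.75, SE 0.22, adjusted p = 4.52e-06 by edgeR). For both genes the lowest cycling value, on day 7, lay well above the highest non-cycling value.

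Rad51c, a subunit of recombination mediator complexes, held 3.91, 2.84, 3.91 and 6.08 CPM in cycling cells against 0.585, 0.547, 1.14 and 0.888 CPM (log2 fold change 2.31, SE 0.28). Palb2, which bridges BRCA1 and BRCA2, held 4.40, 7.16, 7.83 and 3.93 CPM against 1.39, 2.05, 1.70 and 0.761 CPM (log2 fold change 1.81, SE 0.21). Neither gene's groups overlapped. The mismatch recognition subunit Msh6 held 15.4, 20.4, 14.9 and 11.1 CPM in cycling cells against 6.25, 5.17, 4.44 and 3.30 CPM, again without overlap (log2 fold change 1.58, SE 0.16, adjusted p = 2.47e-05 by edgeR).

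Of the 11 excision repair members, 3 rose by less than 1.5-fold (Ddb1, Rad23b and Ercc8), 2 fell and 6 did not pass the test. Ddb1, the adaptor of the CUL4 ubiquitin ligase and of damage recognition, stood at 78.3, 69.1, 67.7 and 71.1 CPM in cycling cells against 57.7, 51.4, 48.4 and 37.7 CPM (log2 fold change 0.45, SE 0.09). Xpa, the scaffold that verifies damage, fell, at 16.2, 17.1, 15.3 and 18.6 CPM against 23.1, 21.1, 20.6 and 20.7 CPM (log2 fold change -0.46, SE 0.10, adjusted p = 0.00377 by edgeR). The damage sensor Xpc fell from 9.04, 9.66, 6.87 and 6.09 CPM to 6.22, 7.16, 4.70 and 3.57 CPM within the 4 libraries (log2 fold change -0.62, SE 0.15, adjusted p = 0.00606 by edgeR). The Xpc groups overlapped, although its cycling value was lower in each library. In thinned cells the direction reversed for Xpc (log2 fold change 0.15, adjusted p = 0.904 by edgeR) and for Rad23b, which went from 0.37 to -0.11 (adjusted p = 0.802 by edgeR). Ercc8 had a log2 fold change of 0.51 (SE 0.17, adjusted p = 0.0280 by edgeR), and its call was lost without the PBS library (adjusted p = 0.156 by edgeR) and without the day 1 library (adjusted p = 0.0563 by edgeR).

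Ercc1, Ercc2, Ercc3, Ercc4, Ercc6 and Ddb2 had log2 fold changes between -0.18 and 0.12 and did not pass the test. The translesion genes Rev1 (-0.18) and Rev3l (0.31) did not pass it either. Rev1 is the scaffold and Rev3l the catalytic subunit of polymerase zeta. Of 67 other genes of the same pathways, 39 rose (24.6% of all genes) and 2 fell (29.4%), Uvssa and Ube2b. Among them the nuclease Exo1 (4.68) and the helicase-like Rad54b (4.34) rose, in log2 fold change.

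**Figure D2:**
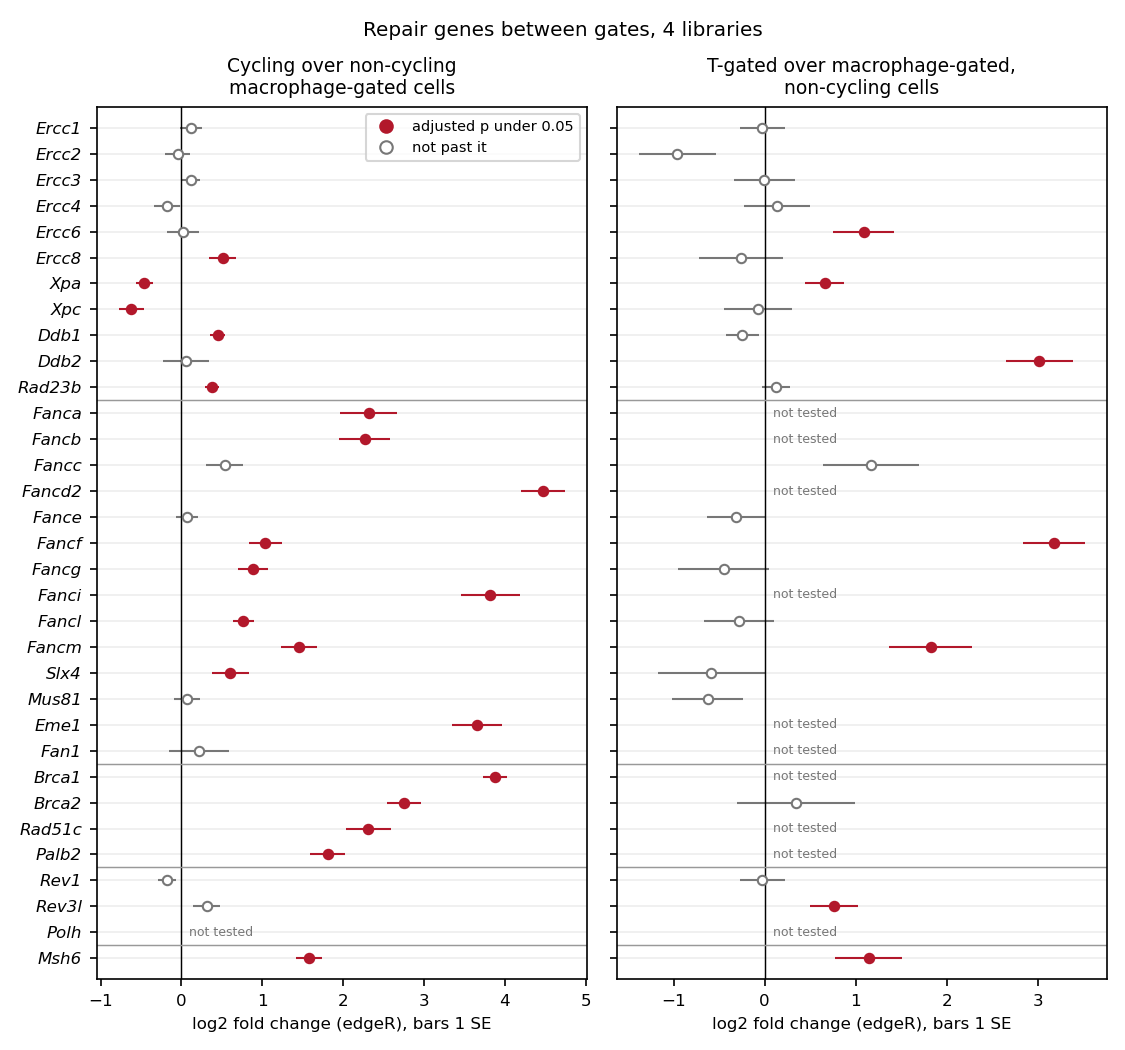
The log2 fold change of each gene with its SE over 4 libraries, for cycling over non-cycling macrophage-gated cells (left) and T-gated over macrophage-gated non-cycling cells (right), where filled points have an adjusted p under 0.05. Homologous recombination genes lie between 1.81 and 3.88 on the left, and on the right the highest points are Fancf (3.17) and Ddb2 (3.02).

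Non-cycling T-gated cells were then set against non-cycling macrophage-gated cells of the same libraries. The T-gated sums were small, at 280094, 888707, 1305744 and 194405 UMIs in library order, and T-gated cells held 324 to 446 CPM of the 8 macrophage genes against 4272 to 5488 CPM in macrophage-gated cells. With a T gate that allowed 0 macrophage genes, 3 members rose (Fancf, Ddb2 and Ercc6), and in thinned cells 3 did (Fancf, Ddb2 and Msh6). Of the 23 members tested, 7 rose in T-gated cells (24.6% of 10306 genes tested) and 0 fell (27.3% of them) by edgeR, with 1 lower at an unadjusted p under 0.05 and 0 lower by DESeq2, which called 4 higher. The median log2 fold change was -0.00 over the members and -0.06 over all genes. Among the members tested, Ddb2, Fancf and Msh6 had every T-gated sum above every macrophage-gated sum (19.1% of all genes). In Mus81 every T-gated sum lay below (18.8%). The filter on low counts can be passed on the sums of a single gate. Ddb2 and Fancf, low in macrophage-gated cells, could thus enter the test through the T gate where they are high. With no filter beyond 1 UMI, 6 of 33 members rose and 2 fell, beside 2704 and 3371 of 18915 genes.

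Ddb2 (chr2:91211572-91236982 in mm10), the subunit that recognises ultraviolet and other lesions, held 21.4, 19.1, 18.4 and 20.6 CPM in T-gated cells, in library order. Macrophage-gated cells held 1.93, 3.17, 2.32 and 0.761 CPM. The groups lay far apart, with a log2 fold change of 3.02 (SE 0.37, adjusted p = 7.30e-07 by edgeR). These T-gated values rest on 6, 17, 24 and 4 UMIs. After thinning, 2.43% of 782 T-gated cells (exact 95% interval 1.47% to 3.77%) and 0.517% of 11614 macrophage-gated cells (0.395% to 0.665%) held a Ddb2 UMI, against 5.58% and 1.69% unthinned. Acp2, which overlaps Ddb2 on the opposite strand, was at 7.14 to 19.1 CPM in T-gated and 93.6 to 112 CPM in macrophage-gated cells, the reverse order.

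Fancf (chr7:51860577-51862267 in mm10), the adaptor of the Fanconi core complex, held 17.9, 25.9, 15.3 and 25.7 CPM in T-gated cells and 1.80, 2.33, 1.86 and 2.92 CPM in macrophage-gated cells. Every T-gated value exceeded every macrophage-gated value (log2 fold change 3.17, SE 0.34, adjusted p = 1.00e-07 by edgeR). The T-gated values rest on 5, 23, 20 and 5 UMIs. Fancf overlaps Gas2 on the opposite strand, and Gas2 was also higher in T-gated cells, at 21.4, 22.5, 8.42 and 10.3 CPM against 0.899, 0.739, 0.258 and 1.14 CPM. The overlap is one of whole gene spans, and the sources used here do not state whether counting used strand. Any part of Gas2 reads in the Fancf value was not tested.

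Within the T gate, pooled over the libraries, Ddb2 was at 25.8 CPM in regulatory T cells that held Foxp3 (exact Poisson 95% interval 17.1 to 37.2), 20 in CD8 T cells (8.65 to 39.5), 13.4 in gamma-delta T cells (4.34 to 31.2) and 12.8 in other T cells (7.34 to 20.9). These intervals overlap. Fancf was at 33.1 CPM in regulatory T cells (23.2 to 45.8), 17.5 in CD8 T cells (7.05 to 36.1), 14.5 in other T cells (8.57 to 22.8) and 2.67 in gamma-delta T cells (0.0677 to 14.9), where the regulatory interval lay above those of gamma-delta and other T cells. These subsets include cycling cells and pool libraries of unequal subset mix, and the 20 cycle genes were at 823 CPM in regulatory, 513 in CD8, 470 in other and 211 in gamma-delta T cells, whose part in the Fancf order was not tested. NK/ILC1-gated cells held 9.62 CPM of Ddb2 (3.53 to 20.9) and 1.60 CPM of Fancf (0.0406 to 8.94). Stromal-gated cells, marked by collagen genes, held 16.3 CPM of Fancf (10.2 to 24.7) and 2.97 CPM of Ddb2 (0.808 to 7.59). The 20 cycle genes were at 2828 CPM in stromal-gated and 286 CPM in NK/ILC1-gated cells, and their part in these values was not tested.

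The other 5 members that rose in T-gated cells did so by less. Fancm had a log2 fold change of 1.83 (SE 0.46, adjusted p = 0.00208 by edgeR), at 10.7, 10.1, 8.42 and 0 CPM against 2.20, 3.31, 1.70 and 1.52 CPM, with the 0 on day 7 resting on 194405 UMIs, where 3 UMIs would be 15.4 CPM. Msh6 held 14.3, 15.8, 6.89 and 10.3 CPM against 6.25, 5.17, 4.44 and 3.30 CPM (log2 fold change 1.14, SE 0.37). Ercc6, the transcription-coupled repair ATPase, held 10.7, 16.9, 19.1 and 0 CPM against 5.04, 6.43, 8.52 and 3.55 CPM (log2 fold change 1.09, SE 0.34). Xpa (log2 fold change 0.66, SE 0.21) and Rev3l (0.76, SE 0.26) were higher in 3 and in 4 of the 4 libraries.

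Only Ddb2, Fancf and Fancm kept their call without the day 1 library, among the 7. The adjusted p by edgeR was then 0.206 for Msh6, 0.153 for Ercc6, 0.188 for Xpa and 0.125 for Rev3l. Without the day 3 library the call was lost for Ercc6, Xpa and Rev3l (adjusted p = 0.0863, 0.0839 and 0.222 by edgeR), and without the day 7 library for Xpa and Rev3l (0.0557 and 0.0514). Fanca was at 0 UMIs in T-gated cells of all 4 libraries, 0 of 878 cells, which allows a share of cells with a UMI of up to 0.342% at a median of 1997.5 to 3314.5 UMIs per cell and sets no limit on cells that express it. In cells thinned before gating, where other cells pass the gates, 5 of 782 T-gated cells (0.639%) held a Fanca UMI. It did not pass the filter on low counts, nor did 9 other members. Of the 55 other pathway genes tested, 18 rose (24.6% of all genes) and 5 fell (27.3%). Rad51b was among those that rose (log2 fold change 3.78).

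The libraries were then compared by day, with 1 library per group, so no test between conditions was possible. A gene was counted as higher or lower when it had at least 20 UMIs over both libraries, differed at least 1.5-fold and had an exact 95% interval of the ratio beyond 1. The interval covers counting error only, and the 3 comparisons share the PBS library. Over all kept cells on day 1, 3 of 33 members were higher (16.9% of all genes) and 5 were lower (3.68%). On day 3, 2 were higher (18.6%) and 10 lower (15.4%), and on day 7, 1 was higher (19.8%) and 14 lower (12.0%). The median log2 ratio of the members was -0.08, -0.27 and -0.57 on days 1, 3 and 7, beside 0.14, -0.04 and 0.01 over all genes.

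Cycling cells were a smaller share of macrophage-gated cells on each day than with PBS, and 18 of the 32 members tested rose in them. Of the 5 lower on day 1, all 5 were genes that rose in cycling macrophage-gated cells, as were 8 of the 10 on day 3 and 9 of the 14 on day 7, the last close to the share among all members. The part of the cycling share in the lower values was not tested. Fancd2 went from 4.27 CPM with PBS to 1.64 CPM on day 1, 1.12 CPM on day 3 and 2.34 CPM on day 7, lowest on day 3. Its log2 ratios were -1.38 (-1.73 to -1.04), -1.93 (-2.49 to -1.42) and -0.87 (-1.42 to -0.36). Eme1 stood at 4.29 CPM with PBS and at 2.03, 1.18 and 1.69 CPM on days 1, 3 and 7, all below PBS. Brca1 stood at 11.4 CPM with PBS and at 8.03, 6.09 and 5.32 CPM, where the day 1 value did not reach 1.5-fold.

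Within non-cycling macrophage-gated cells fewer members were lower on each day. On day 1, 1 of 33 members was lower (2.25% of all genes), on day 3, 3 of 31 (13.4%), and on day 7, 9 of 29 (15.0%). Of the members lower over all cells, 1 of 5 was also lower in the non-cycling gate on day 1 (Fanci), 3 of 10 on day 3 (Brca2, Eme1 and Fancc) and 6 of 14 on day 7 (Brca2, Ercc2, Rev3l, Fancl, Slx4 and Ercc4). Of those 5, 10 and 14 members, 0, 2 and 3 had under 20 UMIs in the gate. Some of the others kept a ratio of similar size with an interval that reached 1. Fancd2 on day 1 was at -1.20 (-2.53 to 0.07) in log2 ratio in the gate against -1.38 over all cells, Fanci on day 3 at -1.39 against -1.05, and on day 7 Eme1 at -1.24 against -1.35 and Brca1 at -0.94 against -1.10. Brca1 on day 3, by contrast, was at 0.12 (-0.58 to 0.82) against -0.90. The gate still held 179 CPM of the 20 cycle genes with PBS against 100, 95.6 and 142 CPM on days 1, 3 and 7. On day 1, 3 members were higher in this gate (8.01% of all genes), on day 3, 3 (14.4%), and on day 7, 0 (11.4%).

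**Figure D3:**
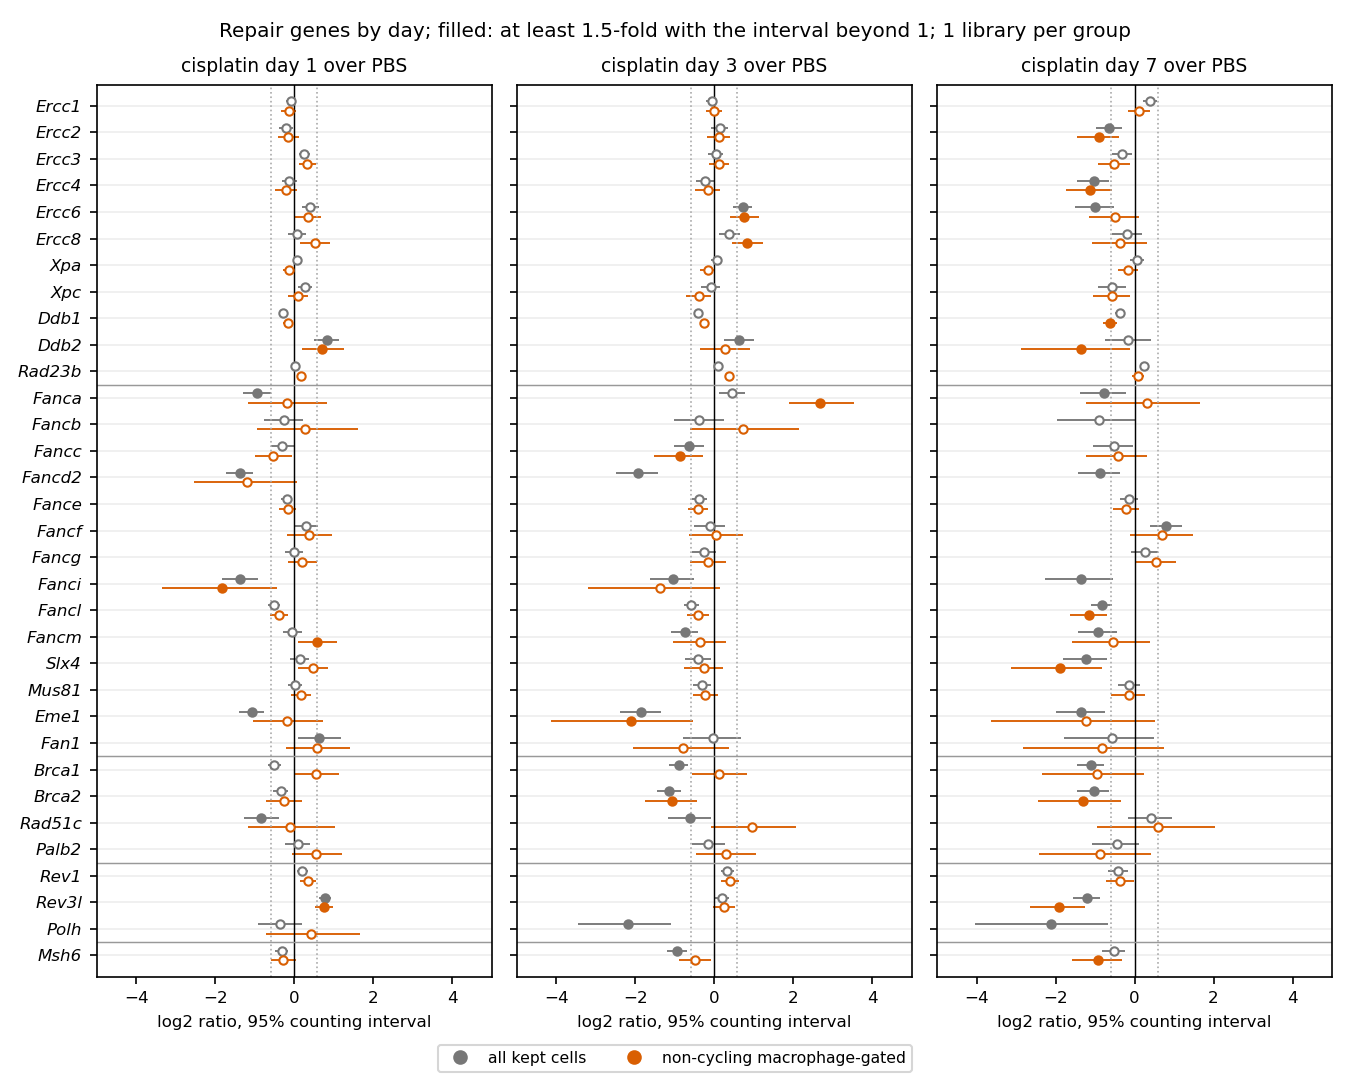
The log2 ratio of each gene to PBS on days 1, 3 and 7 with its exact 95% counting interval, over all kept cells (grey) and in non-cycling macrophage-gated cells (orange), for genes with at least 20 UMIs over both libraries. Filled points are at least 1.5-fold with an interval beyond 1. Fanca on day 3 lies at 2.68 in the non-cycling gate, and the filled points on day 7 are all below 0 in that gate.

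Fanca on day 3 had the largest ratio of any member counted in the non-cycling gate. It stood at 0.720 CPM with PBS (16 UMIs), 0.629 CPM on day 1, 4.60 CPM on day 3 (89 UMIs) and 0.888 CPM on day 7, so only the day 3 library stood apart. The log2 ratio of day 3 to PBS was 2.68 (1.90 to 3.54). In cycling macrophage-gated cells Fanca was also higher on day 3, at 10.6 CPM against 6.22 CPM with PBS (log2 ratio 0.76, 0.10 to 1.38). Non-cycling T-gated cells held 0 UMIs of Fanca in each library, where 3 UMIs would be 10.7, 3.38, 2.30 and 15.4 CPM in library order. These zeros thus do not exclude levels like those of the non-cycling macrophage gate with PBS or on day 7.

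Ly6c2, a gene of monocytes, was at 431 CPM in the day 3 gate against 5.13 CPM with PBS. Isg15, an interferon-induced gene, was at 1328 against 114 CPM. Non-cycling T-gated cells also held more of both on day 3 than with PBS. Ly6c2 was there at 700 against 46.4 CPM and Isg15 at 830 against 104 CPM, so a Ly6c2 UMI does not by itself mark a monocyte. These genes were chosen after their values were seen. On day 3, Fanca was at 6.47 CPM in the 1212 non-cycling macrophage-gated cells with a Ly6c2 UMI (exact Poisson interval 4.88 to 8.42) and at 3.13 CPM in the 1626 cells without (2.17 to 4.37). The PBS cells without a Ly6c2 UMI held 0.684 CPM (0.383 to 1.13). The log2 ratio of day 3 to PBS in cells without a Ly6c2 UMI was 2.19. Zfp276, which overlaps Fanca on the opposite strand, was at 5.04, 6.16, 7.28 and 4.31 CPM in library order, and the part of Ly6c2-bearing cells or of Zfp276 in the Fanca value was not tested further. The letters of an interferon-stimulated response element (GAAA, any 2 bases, GAAA) did not occur in the Fanca promoter on either strand, nor did TTC, any 3 bases, GAA, the letters of a STAT site. They occur in 3.04% and 7.18% of all promoters and in 2 of 28 member promoters each, among them Brca2 for the first, and their absence says only that they are not in these 250 bases.

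**Figure D4:**
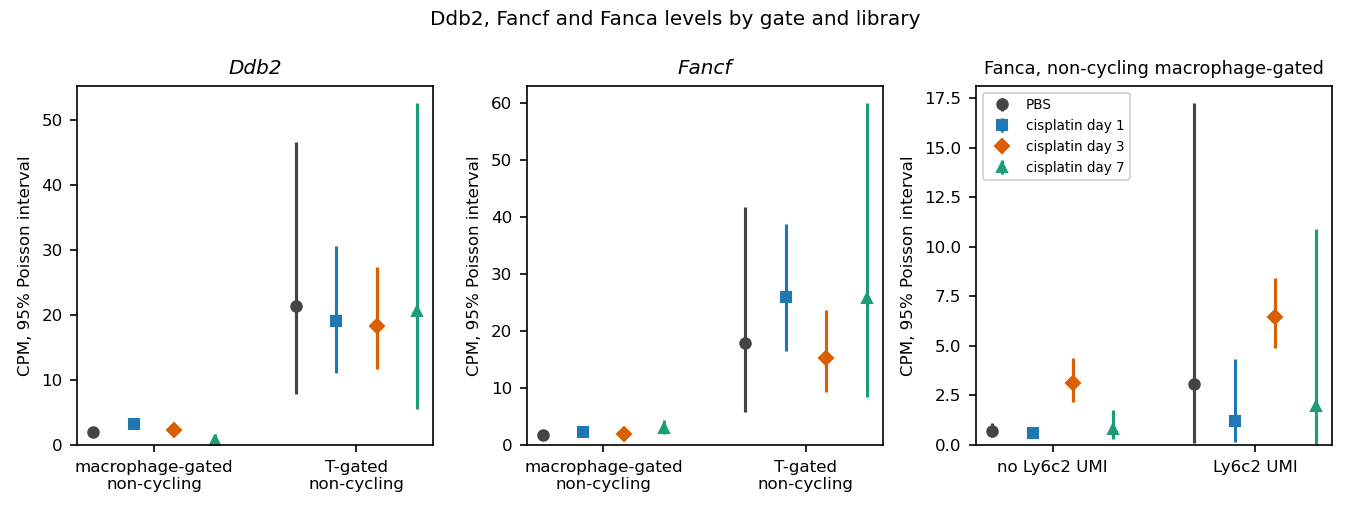
CPM of Ddb2 and Fancf in non-cycling macrophage-gated and T-gated cells, and of Fanca in non-cycling macrophage-gated cells without and with a Ly6c2 UMI, by library with exact Poisson 95% intervals. T-gated values of Ddb2 (18.4 to 21.4 CPM) and Fancf (15.3 to 25.9 CPM) lie above all macrophage-gated values, and Fanca is highest on day 3 in both splits.

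Among the excision repair members of the non-cycling macrophage gate, the transcription-coupled repair genes Ercc6 and Ercc8 were higher on day 3. Ercc6 stood at 5.04 CPM with PBS, 6.43 on day 1, 8.52 on day 3 and 3.55 on day 7, with a day 3 log2 ratio of 0.76 (0.40 to 1.12). Ercc8 stood at 3.91, 5.61, 6.97 and 3.04 CPM in the same order, with a day 3 log2 ratio of 0.83 (0.43 to 1.24). For both genes day 3 was the highest library and day 7 the lowest. Uvssa, another transcription-coupled repair factor, stood at 9.81 CPM on day 3 against 11.1 CPM with PBS in this gate. Ercc8 on day 3 was not counted as higher over all kept cells (log2 ratio 0.38) or in cycling macrophage-gated cells (0.47). Ercc6 was counted as higher in both (0.71 and 0.83). Ddb2 was higher on day 1, at 3.17 against 1.93 CPM (log2 ratio 0.71, 0.20 to 1.25), and lower on day 7, at 0.761 CPM from 6 UMIs (log2 ratio -1.35, -2.87 to -0.11). Its day 1 ratio was -0.03 among cells with UMIs of 0 of the 20 cycle genes.

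Rev3l, the catalytic subunit of polymerase zeta, was highest on day 1 and lowest on day 7. It stood at 9.58 CPM with PBS, 16.1 on day 1, 11.3 on day 3 and 2.54 on day 7 in non-cycling macrophage-gated cells. The log2 ratio was 0.75 (0.52 to 0.98) on day 1 and -1.92 (-2.66 to -1.25) on day 7. In cycling macrophage-gated cells it was likewise higher on day 1 (log2 ratio 0.72, 0.41 to 1.03) and lower on day 7 (-0.70, -1.42 to -0.06). Its partner Rev1 stood at 13.7, 17.5, 17.9 and 10.7 CPM in non-cycling cells and reached 1.5-fold on no day there.

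Day 7 had the most members lower in the non-cycling gate. Slx4 stood at 3.73 CPM with PBS and 1.01 CPM on day 7 (log2 ratio -1.88, -3.14 to -0.83). Ercc4, the nuclease of the ERCC1-XPF pair, stood at 8.32 and 3.80 CPM (log2 ratio -1.13, -1.74 to -0.57), and Fancl, the ubiquitin ligase of the core complex, at 12.6 and 5.71 CPM (-1.15, -1.63 to -0.69). Ddb1 went from 57.7 to 37.7 CPM (-0.62, -0.80 to -0.43). Brca2 (-1.31), Msh6 (-0.92) and the helicase Ercc2 (-0.91) were also lower, in log2 ratio. The day 7 median was -0.53 over the 29 members and -0.11 over all genes. Day 7 cells of this gate had a median of 5063 UMIs and 1816 genes, against 5520 and 1945.5 with PBS, and a mitochondrial share of 1.81% against 2.90%. Malat1, a nuclear RNA, was at 16136 CPM with PBS, 25310 on day 1, 21997 on day 3 and 16675 on day 7. The part of RNA quality or of the smaller library in the day 7 values was not tested.

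Of the other pathway genes on day 7 in this gate, 5 of 64 were higher (11.4% of all genes) and 11 lower (15.0%). The single-strand binding subunit Rpa3 stood at 40.1 against 9.17 CPM (log2 ratio 2.13), the transcription-coupled repair factor Uvssa at 23.1 against 11.1 CPM (1.06) and the polymerase clamp Pcna at 61.8 against 34.1 CPM (0.86). On day 3, 3 of 64 were higher (14.4% of all genes) and 8 lower (13.4%). On day 1, 1 of 67 was higher (8.01%), the translesion polymerase Polk (log2 ratio 0.74), and 4 were lower (2.25%).

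Cycling macrophage-gated cells were compared by day on their own. This gate held 3712 CPM of the 20 cycle genes with PBS and 2406, 2820 and 3411 CPM on days 1, 3 and 7, at medians of 9577.5, 17236, 15626 and 8394 UMIs per cell, so its cycle content also differed between libraries. In it, 2 of 33 members were higher on day 1 (9.14% of all genes) and 0 lower (2.72%). On day 3, 5 of 32 were higher (8.59%) and 1 lower (8.53%), and on day 7, 0 of 32 were higher (14.8%) and 7 lower (11.0%). Brca1 was higher on day 3, at 38.3 against 25.1 CPM (log2 ratio 0.61, 0.28 to 0.93), whereas over all kept cells it was lower on that day (-0.90, -1.14 to -0.67). Palb2 was higher on both days 1 and 3 (log2 ratios 0.70 and 0.83), Fancg on day 3 (0.74) and Ercc6 on day 3 (0.83). Fancd2, Fanci and Rad51c, lower over all cells on day 1 and day 3, were counted as lower on neither day within cycling cells. On day 7, Ercc6 (-1.94), Fancm (-1.21), Ercc4 (-1.04) and Eme1 (-0.94) had the lowest log2 ratios among the 7 counted as lower. Polh (-1.43) and Fancb (-1.30) lay lower than 3 of these, with intervals that reached 1. The day 3 gate held 154 cells and the day 7 gate 296.

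In non-cycling T-gated cells 7 members on day 1, 10 on day 3 and 2 on day 7 had at least 20 UMIs over both libraries. None was counted as higher (5.11%, 6.34% and 12.0% of all genes) or lower (2.81%, 4.3% and 8.57%). A 1.5-fold difference was thus not detectable for most members in these cells. Over all kept cells, Fancf was the member counted as higher on day 7, at 5.26 against 3.03 CPM (log2 ratio 0.79, 0.39 to 1.19), beside T-gated and stromal-gated shares of 3.70% and 1.92% on day 7 against 1.87% and 0.296% with PBS. Within non-cycling macrophage-gated cells Fancf held 2.92 against 1.80 CPM, a log2 ratio of 0.70 (-0.11 to 1.47), and within cycling ones 6.08 against 4.02 CPM, a log2 ratio of 0.60 (-0.26 to 1.37). Neither was counted, and the part of cell composition in the Fancf value was not tested.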

How the data were processed

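Droplet 3' libraries (10x, version 3 chemistry) were made from sorted tumour cells, with 15000 cells loaded per library. The authors deposited 1 count matrix per library, whole UMI counts with genes in rows and barcodes in columns, per the file headers. Cell Ranger 3.1.0, Seurat 3.1.2 and mm10 are named in the submitters' processing notes. Barcodes needed 500 detected genes or more and a mitochondrial share of UMIs up to 10%. Scrublet (scanpy 1.11.5) at an expected rate of 8% marked 1, 0, 0 and 0 cells and so did not work; the highest scores were removed instead, at 0.8% per 1000 barcodes (650 cells with PBS and 643, 249 and 66 on days 1, 3 and 7).

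Cells were gated without clustering. Macrophage-gated cells held at least 4 of 8 macrophage genes (Csf1r, Adgre1, Fcgr1, Cd14, C5ar1, Cd68, Msr1 and 1 that is not reported here) and at most 1 UMI of CD3 or NK genes. T-gated cells held at least 2 UMIs of Cd3d, Cd3e and Cd3g and at most 2 of the macrophage genes. Cells meeting more than 1 gate were set aside. Cycling cells held at least 5 of 20 cycle genes and non-cycling cells at most 2; no member is a gating gene.

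Gates were compared on counts summed per library and gate (8 sums) by edgeR 4.0.16 (R 4.3.3; filterByExpr, TMM, library as block, quasi-likelihood test, Benjamini-Hochberg over all genes tested, threshold 0.05). The 4 libraries serve as replicates of the gate although they differ in treatment, and nothing says how many animals each holds, so p-values measure the spread between these libraries. Days were compared by CPM with exact conditional binomial 95% intervals (scipy 1.17.1). Alternatives used DESeq2 1.42.0, other scalings, filters, gates and thinning. The edgeR test was also run on simulated counts without treatment effects and with changes only in well-counted genes. That run does not cover members with few UMIs. Intervals cover counting error only.

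Values in every library are given for members with at least 200 UMIs that passed a rule or test, up to 4 per pathway and comparison by size, and at most 3 other pathway genes per pathway and contrast. Acp2, Gas2, Zfp276, Malat1, Isg15 and Ly6c2 were added after their values were seen. Members and lists were chosen with earlier results of these data known. Positions are from GENCODE vM21 (mm10) for 33 of 33 members, of which 17 are overlapped by another gene on the opposite strand and 1 (Fancc) on the same strand.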

Additional observations from a re-analysis of the deposited data

How the results depend on the processing

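With 1 library per group, day differences cannot be told apart from differences between mice, tumours or sorts, and members with few UMIs could not show a 1.5-fold difference. Over all kept cells, the counts of members higher or lower on each day stayed within 1.5 times of the reported count under the 6 alternatives run (2 scalings, doublets kept, a mitochondrial limit of 5%, at least 50 UMIs, no minimum). Other scalings moved every day 1 log2 ratio over all kept cells by -0.09 (TMM) or -0.13 (DESeq2 factors).

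In non-cycling macrophage-gated cells on day 1, the 3 higher members became 5 at a mitochondrial limit of 5%, 0 among cells with 0 of 20 cycle genes and 1 in cells thinned to 2000 UMIs. The 1 lower member on day 1 became 3 with DESeq2 or TMM factors and 0 at 50 UMIs, with 0 of 20 cycle genes or after thinning. The 0 higher members on day 7 became 1 with DESeq2 factors and 1 with at least 6 of 8 macrophage genes. The day 1 log2 ratio reversed for Ddb2 with 0 of 20 cycle genes (-0.027) and for Fancm after thinning (-0.10). Fanca on day 3 kept its call under all alternatives run, at 1.91 to 2.95; the split by Ly6c2 was chosen after seeing the data and changed no count by more than 1.5 times. The cause of these changes was not tested.

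Between cycling and non-cycling cells, leaving out each library gave 15 to 18 higher members and 2 lower in each case. Thinning before gating left 691 cycling cells and 19 members tested, of which 3 were higher and 0 lower, with Rad23b (-0.11) and Xpc (0.15) reversed in sign. Other cells pass the gates after thinning, so this alternative does not change depth alone. Without the library as a replicate block 13 were higher and 1 lower; the pairing here is by design, since both sums come from 1 library. Between T-gated and macrophage-gated cells, 7 higher members became 4 with DESeq2, 3 after thinning, 3 with 0 macrophage genes allowed in the T gate, 5 without the block, and 3 to 7 when each library was left out (3 without day 1, 4 without day 3). The 0 lower members became 2 with no filter on low counts and 1 with at most 3 macrophage genes allowed.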
